A study of Mus musculus with 6 samples.

Results

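Epithelial cells of the gut answer microbes with a small set of inducible defence genes, and 10 of them, Reg3a, Reg3b, Reg3g, Lcn2, Duox2, Duoxa2, Nos2, Saa1, Pigr and Sprr1a, were followed here in mouse intestinal adenomas with and without the miR-34 microRNAs. They were taken by symbol out of the 46078 genes of the deposited count tables. In these tumors the spread from mouse to mouse was the main feature. Reg3b and Reg3g, lectins that bind bacterial cell walls, varied 19.2-fold and 19.9-fold over 6 tumor libraries, and Lcn2, an iron-withholding protein, varied 5.41-fold in another order of libraries. Duox2, an oxidase, and its partner Duoxa2 varied only 2.03-fold and 2.05-fold and did so together. None of the 9 members with enough counts to test differed between genotypes past the threshold, and Saa1 had 29 counts in all.

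The study sequenced RNA from adenomas of the small intestine of mice killed at 18 weeks of age, on a mixed C57BL6/SV129 background. The knockout group had the genotype miR-34a/b/c-/-;ApcMin/+ and the wild-type group had miR-34 loci intact and the same ApcMin/+ allele, so every tumor, controls included, arose in an Apc-mutant gut. ApcMin is an inherited allele that truncates Apc, a brake on Wnt signalling, and miR-34a, miR-34b and miR-34c are microRNAs induced by p53. Each group held 3 mice and each library pooled 3 tumors of 1 mouse, so differences among the tumors of a mouse are averaged within a library and each library stands for a mouse. Differences between mice and between the tumors taken from them cannot be told apart, and spread among mice below means both.

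Inducible defence genes are kept low in the absence of microbes and are switched on in enterocytes and Paneth cells when bacteria reach the epithelium. Signals come from Toll-like receptors through MyD88 and NF-kB, and from innate lymphoid and T cells through IL-22 and IL-17, whose receptors on the epithelium act through STAT3, C/EBP factors and NF-kB. The products kill or starve bacteria (Reg3 lectins, lipocalin 2), produce oxidants at the cell surface (the dual oxidase and the inducible nitric oxide synthase) or carry IgA into the lumen (the polymeric immunoglobulin receptor).

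The libraries held 26375035 to 38354355 counts each, of which 2.31% to 4.18% fell on mitochondrial genes. Xist and Y-linked counts placed 1 male in each group, knockout replicate 2 and wild-type replicate 3, and 4 females. The precursors of miR-34a, miR-34b and miR-34c had 0 counts in all 6 libraries, wild-type libraries included, so these tables do not check the genotype. As a check of the tissue, the summed level of 9 epithelial markers such as Epcam and Cdh1 lay between 12310.5 and 17958 CPM (counts scaled to a common library size after TMM) and varied 1.46-fold. Together the 10 defence genes took between 0.272% of the counts (knockout replicate 1) and 1.37% (wild-type replicate 2). All levels below are in CPM unless a sentence says that they are per kilobase of the longest coding transcript, the only scale on which genes are compared with each other.

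The 3 Reg3 genes encode secreted C-type lectins. Reg3b and Reg3g are known for their action on Gram-negative and on Gram-positive bacteria, and Reg3a is a family member of lower abundance here. They lie together on mm10 chromosome 6, Reg3b at 78370885 to 78373466, Reg3a at 78380709 to 78383839 and Reg3g at 78466269 to 78468872 on the opposite strand. Their promoters, from 250 bases before to 50 bases after the start site (RefSeq, GRCm38.p6, 5′ to 3′ on the strand of the gene), are shown because the levels of 2 of these genes moved together over the libraries and those of Reg3a did not. Capitals mark matches, on either strand, to the motifs searched: STAT (TTCNNNGAA), NF-kB (by its name), C/EBP (TTGCNNAA) and the TATA box (TATAAA).
Reg3b promoter, chr6:78370635-78370934, plus strand: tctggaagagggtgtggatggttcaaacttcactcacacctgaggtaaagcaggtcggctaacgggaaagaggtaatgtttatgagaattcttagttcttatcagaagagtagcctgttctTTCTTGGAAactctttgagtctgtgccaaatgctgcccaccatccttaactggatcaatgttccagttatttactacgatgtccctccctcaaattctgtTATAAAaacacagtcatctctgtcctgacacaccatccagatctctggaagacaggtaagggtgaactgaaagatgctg
Reg3g promoter, chr6:78468825-78469124, minus strand: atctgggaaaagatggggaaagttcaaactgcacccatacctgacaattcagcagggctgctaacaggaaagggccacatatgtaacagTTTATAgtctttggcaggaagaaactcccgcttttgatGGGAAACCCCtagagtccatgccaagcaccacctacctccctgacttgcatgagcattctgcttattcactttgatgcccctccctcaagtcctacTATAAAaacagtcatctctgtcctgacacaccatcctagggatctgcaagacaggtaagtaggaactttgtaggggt
Reg3a promoter, chr6:78380459-78380758, plus strand: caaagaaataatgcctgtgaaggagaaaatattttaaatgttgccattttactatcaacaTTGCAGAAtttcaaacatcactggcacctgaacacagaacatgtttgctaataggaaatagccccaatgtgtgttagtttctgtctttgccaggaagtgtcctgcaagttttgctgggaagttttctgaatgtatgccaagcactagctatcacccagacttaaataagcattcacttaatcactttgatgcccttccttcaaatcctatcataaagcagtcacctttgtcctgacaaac

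The Reg3b promoter held a STAT match, TTCTTGGAA, from -129 to -121 relative to the start site and a TATA box from -29 to -24. The Reg3g promoter held an NF-kB match, GGGAAACCCC, from -123 to -114 and TATA boxes from -27 to -22 and, reversed, from -161 to -156. The Reg3a promoter held a C/EBP match, TTGCAGAA, from -190 to -183 and no TATA box by this pattern. Among 32851 promoters of the same length, 8.30% held a STAT match, 8.46% an NF-kB match, 10.8% a C/EBP match and 13.6% a TATA box, so single matches of this kind are common. Reg3b and Reg3g also shared an identical run of 29 bases, ACAGTCATCTCTGTCCTGACACACCATCC, that begins at -20 in both and is found in no other promoter of the table in that strand. Reg3a and Reg3g shared an identical run of 14 bases, likewise found in no other promoter of the table in that strand. Pairwise identity among the 3 Reg3 promoters was 66.4% to 70.9%, against 50.4% to 65.2% for the other 33 pairs of member promoters. It was highest for Reg3a and Reg3g (70.9%), then Reg3b and Reg3g (69.9%) and Reg3a and Reg3b (66.4%). The pair whose levels moved together, Reg3b and Reg3g, was thus not the most alike by identity. These are descriptions of the sequence, and no binding was measured.

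Reg3b had 391, 4801 and 1763 CPM in knockout replicates 1, 2 and 3 and 1835, 7508 and 3868 CPM in wild-type replicates 1, 2 and 3. Knockout replicate 1 was far below every other library and the groups overlapped, since knockout replicate 2 was second only to wild-type replicate 2. Mean levels were 2318 ± 2257 CPM (knockout) and 4404 ± 2874 CPM (wild-type, SD over 3 mice each), with a log2 fold change of -0.93 ± 0.88 (SE, edgeR adjusted p = 0.830). Reg3b alone made up 0.713% of the counts in wild-type replicate 2 and 0.0421% in knockout replicate 1.

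Reg3g had 158, 1807 and 453 CPM in the knockout and 704, 3133 and 2053 CPM in the wild-type libraries. It had the same highest and lowest libraries as Reg3b, and knockout replicate 2 again lay inside the wild-type range. Its fitted difference was the largest of the members, a log2 fold change of -1.28 ± 0.91 (SE, edgeR adjusted p = 0.813). An interval of 2 SE around it ran from -3.10 to 0.53, so a several-fold lower level in knockout tumors and a somewhat higher one both lay inside it. Within the knockout group alone, Reg3b varied 12.3-fold and Reg3g 11.5-fold.

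Reg3a had 4.34, 9.91 and 17.8 CPM in the knockout and 9.91, 12.2 and 34.9 CPM in the wild-type libraries. Here wild-type replicate 3 and knockout replicate 3 were highest, in place of wild-type replicate 2 and knockout replicate 2. The log2 fold change was -0.83 ± 0.63 (SE, edgeR adjusted p = 0.813). Per kilobase, the mean level over the 6 libraries was 18.0 for Reg3a, 4293 for Reg3b and 1796 for Reg3g. The mRNAs of the 3 genes are 73.8% to 77.0% identical over the aligned stretches, below the 90% used here to call near copies.

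**Figure D1:**
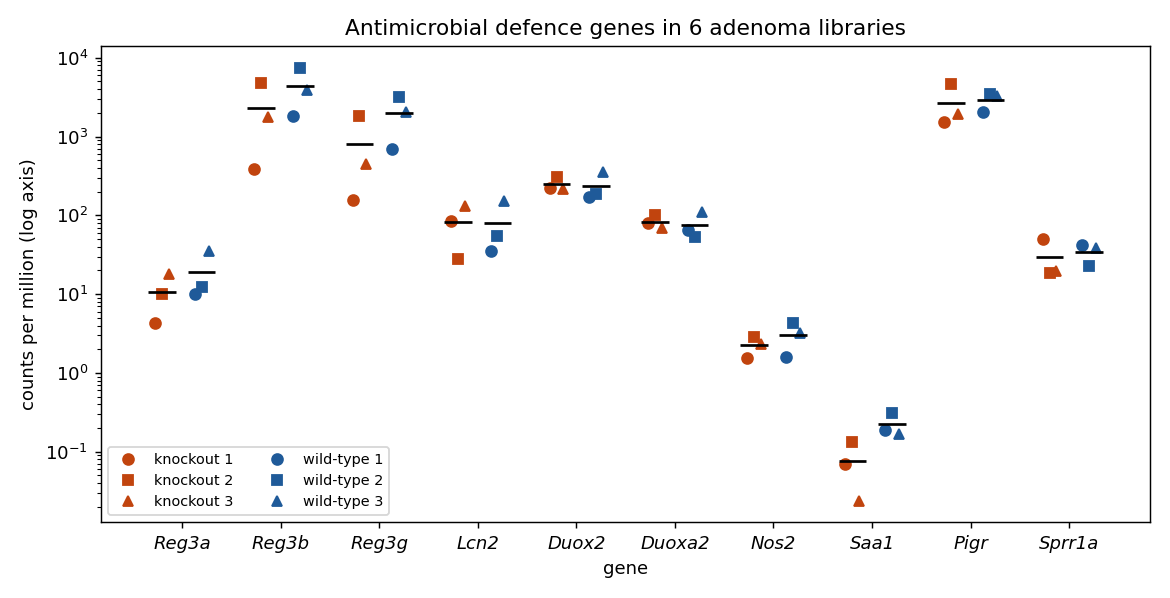
Level of each of the 10 genes in CPM (vertical log axis) in the 6 libraries, with knockout in orange, wild-type in blue, a marker shape for each replicate number and a black line at the mean of each group. The Reg3b and Reg3g points spread over more than a factor of 10 within the knockout group, Duox2 and Duoxa2 points lie close together, and Saa1 (1 to 10 counts a library) lies far below the rest.

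Lcn2 encodes lipocalin 2, which binds bacterial siderophores and so withholds iron (chromosome 2, 32384633 to 32388252). It had 84.5, 28.0 and 133 CPM in the knockout and 35.1, 55.5 and 152 CPM in the wild-type libraries. The replicates numbered 3 were high in both groups and knockout replicate 2, among the highest for Reg3b, was the lowest for Lcn2. Group means were 82.0 ± 52.7 and 80.7 ± 62.2 CPM (SD, n = 3 each), with a log2 fold change of 0.02 ± 0.68 (SE, edgeR adjusted p = 0.996). Differences of 2-fold in either direction lay inside the interval of 2 SE, from -1.34 to 1.39. Among mice of 1 genotype Lcn2 varied 4.76-fold (knockout) and 4.32-fold (wild-type).

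Duox2, the dual oxidase that makes hydrogen peroxide at the apical surface, and Duoxa2, the maturation factor that brings it there, lie head to head on chromosome 2 (122279247 to 122298165 on the minus strand and 122298900 to 122302885 on the plus strand). Their RefSeq start sites are 673 bases apart. Both promoters are shown because the levels of the 2 genes held the steadiest ratio of any pair of members.
Duox2 promoter, chr2:122298178-122298477, minus strand: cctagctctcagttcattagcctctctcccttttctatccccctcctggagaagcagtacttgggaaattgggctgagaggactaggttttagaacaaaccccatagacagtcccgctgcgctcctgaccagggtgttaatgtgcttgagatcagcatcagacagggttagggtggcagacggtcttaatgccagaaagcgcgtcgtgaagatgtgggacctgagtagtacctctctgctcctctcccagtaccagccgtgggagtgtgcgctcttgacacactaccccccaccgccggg
Duoxa2 promoter, chr2:122298650-122298949, plus strand: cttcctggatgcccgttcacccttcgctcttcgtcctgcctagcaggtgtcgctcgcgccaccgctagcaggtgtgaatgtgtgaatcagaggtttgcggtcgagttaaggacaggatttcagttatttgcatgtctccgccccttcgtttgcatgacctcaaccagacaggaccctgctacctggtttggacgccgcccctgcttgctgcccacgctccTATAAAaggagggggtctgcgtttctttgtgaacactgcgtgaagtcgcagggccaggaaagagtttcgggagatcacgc
The Duoxa2 promoter held a TATA box from -30 to -25, in capitals above. The Duox2 window held none of the 4 motifs, which says only that these letters are not in it.

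Duox2 had 223, 311 and 217 CPM in the knockout and 174, 186 and 353 CPM in the wild-type libraries. Duoxa2 had 79.3, 101 and 69.3 CPM in the knockout and 65.6, 53.3 and 109 CPM in the wild-type libraries. For both genes wild-type replicate 3 was highest and knockout replicate 2 next, the other 2 wild-type libraries were the lowest, and the groups overlapped. The log2 fold changes were 0.07 ± 0.30 for Duox2 (SE, edgeR adjusted p = 0.964) and 0.13 ± 0.28 for Duoxa2 (edgeR adjusted p = 0.927). Their intervals of 2 SE, from -0.54 to 0.68 and from -0.43 to 0.69, were the narrowest among the members. Duoxa2 overlaps Duoxa1 on the opposite strand and shares 683 identical bases with its transcripts. Without strand, reads from that overlap cannot be told apart, which makes both counts uncertain there. Duoxa1 had 432 counts in all against 15889 for Duoxa2.

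The 2 libraries highest for Duox2 and Duoxa2 were those of the 2 males. In a fit with genotype and sex, the male minus female log2 difference was 0.74 ± 0.14 for Duox2 (SE, edgeR adjusted p = 0.470) and 0.66 ± 0.16 for Duoxa2 (edgeR adjusted p = 0.470). For Pigr it was 0.87 ± 0.35 (edgeR adjusted p = 0.489). Estimates were largest for Reg3g (1.51 ± 0.90) and Reg3b (1.12 ± 0.96), with adjusted p = 0.587 and 0.690 by edgeR. None of the 9 tested members passed over all genes, where 1 of 17254 genes (0.0058%) did. Xist had 20001 to 32886 counts in females and 56 and 125 in males. Ddx3y had at most 10 counts in females and 1688 and 1843 in males. At most 1 of these 2 genes was thus called, so the lack of calls says little about the members. With 1 male in each group, sex cannot be told apart from other features of those 2 mice.

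Nos2 encodes the inducible nitric oxide synthase (chromosome 11, 78920787 to 78960254). It was low, with 1.55, 2.87 and 2.33 CPM in the knockout and 1.62, 4.25 and 3.22 CPM in the wild-type libraries, from 44 to 135 counts each. Replicate 1 was the lowest of each group and replicate 2 the highest, and the groups overlapped. The log2 fold change was -0.43 ± 0.42 (SE, edgeR adjusted p = 0.836).

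Pigr encodes the receptor that carries polymeric IgA across the epithelium (chromosome 1, 130826684 to 130852249). It had 1535, 4610.1 and 1945 CPM in the knockout and 2071, 3431 and 3271 CPM in the wild-type libraries. Knockout replicate 2 was the highest and knockout replicate 1 the lowest library, so the knockout range enclosed the wild-type range. Group means were 2697 ± 1670 and 2924 ± 744 CPM (SD, n = 3 each), with a log2 fold change of -0.12 ± 0.45 (SE, edgeR adjusted p = 0.962). Short stretches of its mRNA, 103 to 128 of 3849 bases, match transcripts of 6 other genes at 91.4% to 99.03% identity, so reads from them are uncertain. Per kilobase, Pigr averaged 730 over the 6 libraries, below Reg3b and Reg3g and above the other 7 members.

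Saa1 encodes serum amyloid A, an acute phase protein of liver and gut that binds retinol and lipid (chromosome 7, 46740501 to 46742980). It had 2, 4 and 1 counts in the knockout and 6, 10 and 6 counts in the wild-type libraries. These counts did not overlap between groups, which was also so for 11.2% of all tested genes. They were too few to pass the filter on low counts. With no filter the log2 fold change was -1.56 ± 0.78 (SE, edgeR adjusted p = 0.793), and DESeq2 gave an adjusted p of 0.923. The knockout values of 1 to 4 counts lie near the 3 counts that a count of 0 would allow. Saa1 is 93.5% identical to Saa2 over 612 bases, which makes a count this low uncertain. Saa2 had 0 counts in all 6 libraries.

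Sprr1a encodes a small proline-rich protein of the cornified envelope (chromosome 3, 92483952 to 92485895). It had 50.5, 18.8 and 19.8 CPM in the knockout and 41.5, 23.1 and 38.8 CPM in the wild-type libraries. Knockout replicate 1, the lowest library for 5 of the 9 tested members, was the highest for Sprr1a. The log2 fold change was -0.22 ± 0.43 (SE, edgeR adjusted p = 0.915), with overlapping groups. The cornified envelope is best known from stratified squamous epithelium. Its 8 markers summed to 24.0 to 45.1 CPM in knockout and 7.77 to 40.9 CPM in wild-type libraries. Over all 6 libraries Krt14 had the most counts of these markers, 3069, and Krt5 and Trp63 the fewest, 12 and 40. The remaining markers had from 301 (Lor) to 679 counts (Ivl). The part of squamous cells in the Sprr1a level was not tested.

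Genotypes were compared over all genes with enough counts, 17254 in number, by the quasi-likelihood test of edgeR, with genes called at adjusted p under 0.05. Of the 10 members 9 were tested and 0 passed, where 16 of all genes (0.0927%) passed. At an unadjusted p below 0.05, 0 of the 9 passed against 5.85% of all genes, and DESeq2 called 0 of the 10 members against 0.689% of genes with an adjusted p. Values of the 2 groups overlapped for each of the 9, while 11.2% of all tested genes showed no overlap. The fitted difference was below 0 for 6 of 9 members and for 48.9% of all genes, and the median log2 fold change of the 9 was -0.22 against 0.01 for all genes. The 3 positive values belonged to Lcn2, Duox2 and Duoxa2. RNA of a whole tumor was measured, so fewer cells that express a gene and less RNA per cell cannot be told apart.

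**Figure D2:**
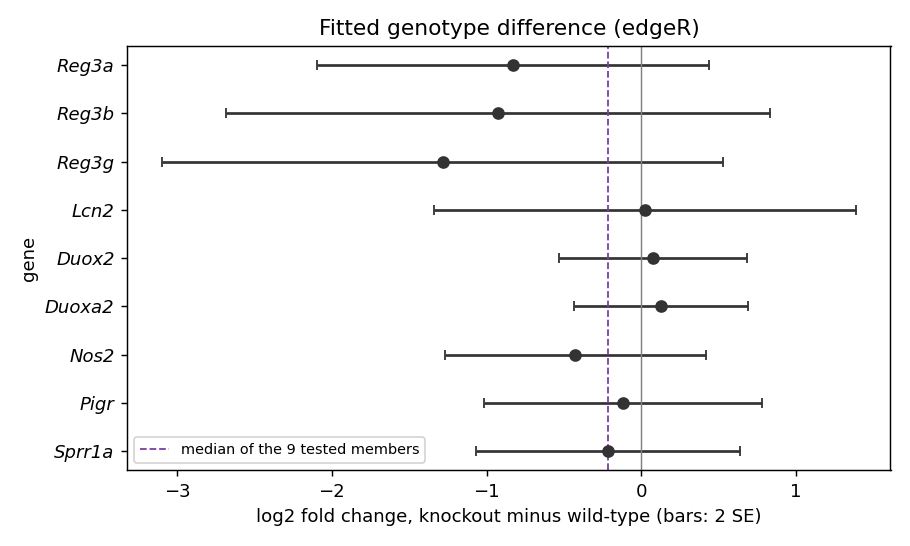
Fitted log2 fold change, knockout minus wild-type (horizontal axis), for the 9 tested genes, with bars of 2 SE from edgeR and a dashed line at their median of -0.22. Every bar crosses 0, and the bars of Duox2 and Duoxa2 are the shortest while those of Reg3a, Reg3b and Reg3g reach below -2.

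The precision of these comparisons follows the spread among mice of 1 genotype. The within-group SD of the log2 level was larger for Reg3b and for Reg3g than for 98.7% of tested genes of at least 1 CPM on average. It was larger than for 97.2% of genes for Lcn2, 96.2% for Reg3a, 90.1% for Pigr and 90% for Sprr1a. Nos2 (86.9%), Duox2 (78.3%) and Duoxa2 (75.9%) varied less but still more than most genes. Depth was not what limited the abundant members, since Reg3b rested on at least 11101 counts in a library.

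Without knockout replicate 2 the Reg3b and Reg3g log2 fold changes were -2.03 and -2.68 (adjusted p = 0.340 and 0.235, edgeR), and without knockout replicate 1 they were -0.42 and -0.80 (adjusted p = 0.957 and 0.923, edgeR). Without wild-type replicate 2 they were -0.30 and -0.78 (edgeR adjusted p = 0.999 for both). The estimates for the 2 lectins therefore depended on single mice of both groups, and their adjusted p ran from 0.235 to 1.00 over all alternatives.

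The members did not follow 1 common order of libraries. Reg3b ran from wild-type replicate 2 through knockout replicate 2, wild-type replicates 3 and 1 and knockout replicate 3 down to knockout replicate 1. Reg3g kept that order except that wild-type replicate 3 and knockout replicate 2 changed places, and the order of Pigr differed from that of Reg3b in placing knockout replicate 2 first. Nos2 had its extremes in the same libraries as Reg3b. Reg3a and Lcn2 were highest in wild-type replicate 3 and then knockout replicate 3. Knockout replicate 1 was the lowest for Reg3a, Reg3b, Reg3g, Nos2 and Pigr, but for Lcn2, Duox2 and Duoxa2 it lay near the middle.

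**Figure D3:**
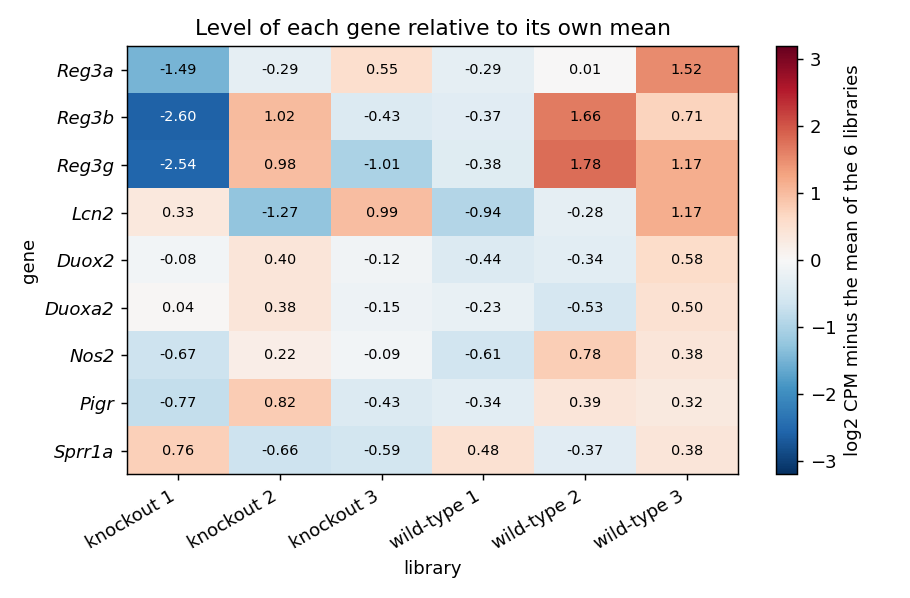
Log2 CPM of each tested gene in each library minus its mean over the 6 libraries (color and printed number), with genes as rows and libraries as columns. Reg3b and Reg3g share a deep low of -2.60 and -2.54 in knockout replicate 1, where Lcn2 (0.33) and Sprr1a (0.76) lie above their means.

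Ratios per kilobase show how closely members tracked each other within a library. Duox2 to Duoxa2 was 0.731, 0.804 and 0.815 in the knockout and 0.689, 0.908 and 0.843 in the wild-type libraries, a 1.32-fold range and the steadiest of the 36 pairs of tested members by the SD of the log2 ratio. Reg3b to Reg3g came next, with ratios from 1.85 (wild-type replicate 3) to 3.83 (knockout replicate 3), although each gene alone varied more than 19-fold. At rank 3 was Nos2 to Pigr, genes of different chromosomes, with a range of 1.99-fold beside 2.07-fold for Reg3b to Reg3g. A steady ratio was thus not limited to neighbouring genes. Reg3a stood apart from both relatives in the same cluster, since its ratio to Reg3b ran from 0.00154 to 0.0105. Near the other end of the scale, at rank 35, Reg3b to Lcn2 ran from 5.41 in knockout replicate 1 to 200.4 in knockout replicate 2, and Reg3g to Lcn2, from 2.22 to 76.6, was the least steady pair. The ratios of a pair share a library and its depth, so these are descriptions of 6 libraries.

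**Figure D4:**
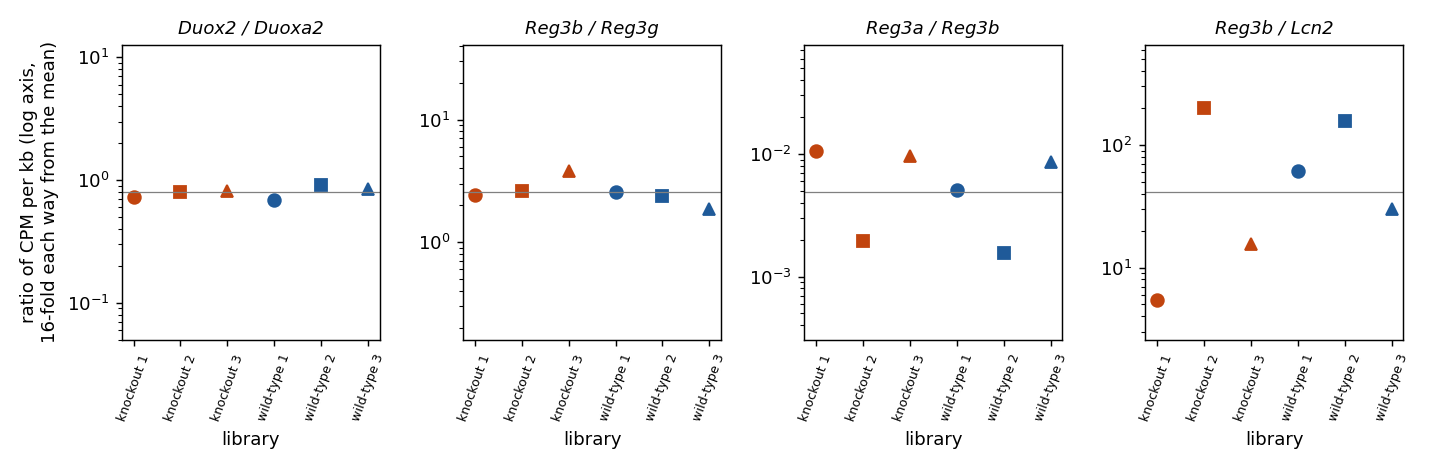
Ratio of the per-kilobase levels of 4 pairs of genes (vertical log axes of equal span) in the 6 libraries, with a grey line at the mean. Duox2 to Duoxa2 stays between 0.689 and 0.908, while Reg3b to Lcn2 spans 37.0-fold.

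Neighbours in the same gene clusters differed in level. Reg1, a further lectin gene of the Reg cluster, had 473, 3314 and 236 CPM in the knockout and 1574, 3273 and 1388 CPM in the wild-type libraries, high in the same 2 libraries as Reg3b. Reg2 and Reg3d stayed below 1.5 CPM. Saa3, a serum amyloid A gene of local tissues, had 14.6, 11.6 and 25.3 CPM in the knockout and 4.94, 9.53 and 43.9 CPM in the wild-type libraries, highest where Lcn2 was highest. Duox1 and Duoxa1, the paralogs beside Duox2 and Duoxa2, reached 3.70 and 3.30 CPM at most, both in knockout replicate 2. In the Sprr cluster Sprr2a3 had from 250 CPM (knockout replicate 1) to 626 CPM (wild-type replicate 3), the reverse of Sprr1a in knockout replicate 1, Sprr1b had 1 count in all and Sprr4 had none.

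Among 41 other inducible epithelial defence genes, all present in the tables, 31 were tested and 0 passed. Of these 10 had a fitted difference above 0 and 21 below, with a median of -0.32. No overlap between groups was seen for 3 of the 31, a share below the 11.2% of all tested genes. Those 3 were Ang4, Itln1 and Reg4, each higher in every knockout library. Ang4, a Paneth cell ribonuclease, had 329, 66.0 and 104 CPM against 29.1, 13.9 and 32.2 CPM, a log2 fold change of 2.73 ± 0.65 (SE, edgeR adjusted p = 0.762). The lectin Itln1 had 340.1, 164 and 278 CPM against 128, 113 and 160 CPM (edgeR adjusted p = 0.793). Reg4, a lectin of secretory cells, had 435, 427 and 592 CPM against 357, 160.0 and 228 CPM (edgeR adjusted p = 0.793). Summed levels of 7 Paneth markers, Itln1 among them, were 924 to 1895 CPM in knockout and 654 to 776 CPM in wild-type libraries. The largest part of the sum was Lyz1, with 521 to 1318 CPM against 338 to 379 CPM. Groups did not overlap for 2 of the 7, Lyz1 and Itln1, beside 11.2% of all tested genes. Of the 7 fitted differences 6 lay above 0 and 1 below, that of Defa21 (-1.22), and 0 passed. Their part in the values of Ang4, Itln1 and Reg4 was not tested. Noxo1, an organizer of the oxidase Nox1, had the next smallest p, with 1.62, 3.17 and 2.09 CPM against 2.58, 5.03 and 3.81 CPM (edgeR adjusted p = 0.793). Dmbt1, a mucosal glycoprotein that binds bacteria, had 2811, 8356 and 2673 CPM against 4574, 8005 and 8026 CPM, a spread like that of Pigr with knockout replicates 1 and 3 lowest.

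Several lymphoid cytokines that induce these genes had few counts. Il22 had 2 counts in all, both in wild-type replicate 2, Ifng had 4 and Il17a had 38, the most of them in wild-type replicate 3 (0.560 CPM). Il17f, a further IL-17 cytokine, had 15 to 30 counts in each library, from 0.408 to 0.944 CPM. Of 27 listed cytokines and microbial sensors 25 were found in the tables, 22 were tested and 0 passed, with 11 fitted differences above 0 and 11 below and a median of 0.01. Tnf was the 1 gene of the 22 whose groups did not overlap, where 11.2% of all genes did not, with 3.21, 4.06 and 4.27 CPM in the knockout and 5.53, 5.47 and 4.56 CPM in the wild-type libraries (log2 fold change -0.43 ± 0.23, adjusted p = 0.801, edgeR). Il18, an epithelial cytokine, had 21.2, 52.8 and 26.9 CPM in the knockout and 35.5, 69.9 and 46.3 CPM in the wild-type libraries (edgeR adjusted p = 0.808), the same order of libraries as Reg3b. Il11, a cytokine of stromal cells, had 21.8, 6.70 and 19.3 CPM against 2.36, 2.93 and 13.7 CPM (edgeR adjusted p = 0.802). Il1a, an alarm cytokine of epithelium, had 3.88, 2.74 and 7.25 CPM against 2.02, 3.24 and 4.14 CPM (edgeR adjusted p = 0.814). Il6 was highest in knockout replicate 3 (3.26 CPM) and wild-type replicate 3 (2.69 CPM), the 2 libraries highest for Lcn2.

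The summed level of 32 receptors and signalling genes of the induction pathway varied 1.20-fold over the libraries, against 5.70-fold for the sum of the 10 members. Of the 31 tested, 0 passed, 14 fitted differences lay above 0 and 17 below, and the median was -0.02. Il22ra1, the IL-22 receptor chain of epithelium, ranged from 22.4 CPM in knockout replicate 1 to 54.7 CPM in knockout replicate 2, and Stat3, its transcription factor, from 230.0 to 305 CPM. Relb, an NF-kB subunit, had 34.9, 46.7 and 35.0 CPM against 47.2, 54.5 and 50.7 CPM, and Nfkbia, the NF-kB inhibitor that NF-kB itself induces, had 46.8, 50.2 and 47.3 CPM against 52.7, 68.0 and 56.3 CPM. Both had an adjusted p of 0.793 by edgeR. Myd88, the adaptor of Toll-like receptors, had 30.03, 34.5 and 29.3 CPM against 35.0, 38.1 and 34.9 CPM (edgeR adjusted p = 0.802), and these were the 3 of the 31 tested genes whose groups did not overlap, again a share below the 11.2% of all genes. Il1r1, the IL-1 receptor, had 26.8, 19.3 and 42.4 CPM against 18.7, 12.7 and 20.8 CPM, and Ahr, a ligand-activated transcription factor that supports IL-22 production, had 37.4, 62.3 and 46.1 CPM against 38.1, 37.4 and 37.4 CPM (adjusted p = 0.793 for both, edgeR).

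All 7 genes of the IgA transport list, Pigr included, had a fitted difference below 0 with a median of -0.83, 0 passed, and 5 did not overlap between groups, beside 11.2% of all tested genes. Igha, the IgA heavy chain, had 1154, 3483 and 3334 CPM in the knockout and 4063, 6039.8 and 5521 CPM in the wild-type libraries. Jchain, which joins IgA monomers, had 245, 726 and 669 CPM in the knockout and 889.6, 1343 and 1138 CPM in the wild-type libraries. The kappa chain gene Igkc ranged from 391 to 1341 CPM in knockout and from 1473 to 2986 CPM in wild-type libraries, and Xbp1, a transcription factor of secretory cells, from 206 to 253 CPM and from 273 to 387 CPM. Each of these 4 genes had an adjusted p of 0.793 by edgeR. The lambda chain gene Iglc1 overlapped between the groups, as Pigr did, with 29.8, 60.4 and 182 CPM in the knockout and 104, 148 and 114 CPM in the wild-type libraries (edgeR adjusted p = 0.879). Whether Pigr differed from its cargo genes was not tested.

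Cell type markers varied beside the members. The summed level of 9 enterocyte markers was 6705 to 15704 CPM in knockout and 9460 to 15007 CPM in wild-type libraries, with knockout replicate 1 lowest and knockout replicate 2 highest, as for Pigr. The 8 innate and T lymphoid markers together had 26.5 to 78.2 CPM in knockout and 42.3 to 66.9 CPM in wild-type libraries and placed the 6 libraries in the same order as Pigr. The 12 neutrophil markers had 70.5 to 180 CPM in knockout and 136 to 298 CPM in wild-type libraries, highest in wild-type replicate 3 and then knockout replicate 3, as Lcn2, a gene that neutrophils express too. Most of that sum was Ltf, while S100a8 had at most 4.46 CPM and Elane was at 0. The 6 plasma cell markers had 1835 to 4588 CPM in knockout and 5443 to 7747 CPM in wild-type libraries, without overlap. Igha, given above, made up most of each of these sums. Groups did not overlap for 4 of the 6, beside 11.2% of all tested genes, and did overlap for Sdc1 and Tnfrsf17. Of the fitted differences 5 lay below 0 and 1 above, that of Sdc1 (0.04), and 0 passed. The part of cell composition in the levels of the defence genes was not tested.

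Traces of other tissues were looked for because Reg genes are also known from the pancreas and Saa1 and Lcn2 from the liver. The 8 pancreatic acinar markers summed to 39.6 to 130.2 CPM in knockout and 89.98 to 133 CPM in wild-type libraries. Most of each sum was Cela1, the only 1 of them with enough counts to be tested. Cela1 had 39.2 to 130 CPM in knockout and 89.7 to 133 CPM in wild-type libraries. Ctrb1 had 8.42 CPM in knockout replicate 1 and at most 0.336 CPM elsewhere. Prss2, Cela2a, Cpb1, Pnlip and Cpa1 were also highest there, at 1.80, 1.62, 1.55, 1.30 and 0.952 CPM, with at most 0.196 CPM elsewhere. Amy2a5 had 0 counts there. Knockout replicate 1 was the lowest library for the Reg3 genes, and a pancreatic part in their levels was not tested. The 6 hepatocyte markers summed to 19.7 to 84.8 CPM in knockout and 25.1 to 86.2 CPM in wild-type libraries, with Fgb at 0 and Hp, also an acute phase gene, at 51.8 CPM in wild-type replicate 3 and 46.6 CPM in knockout replicate 3.

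**Figure D5:**
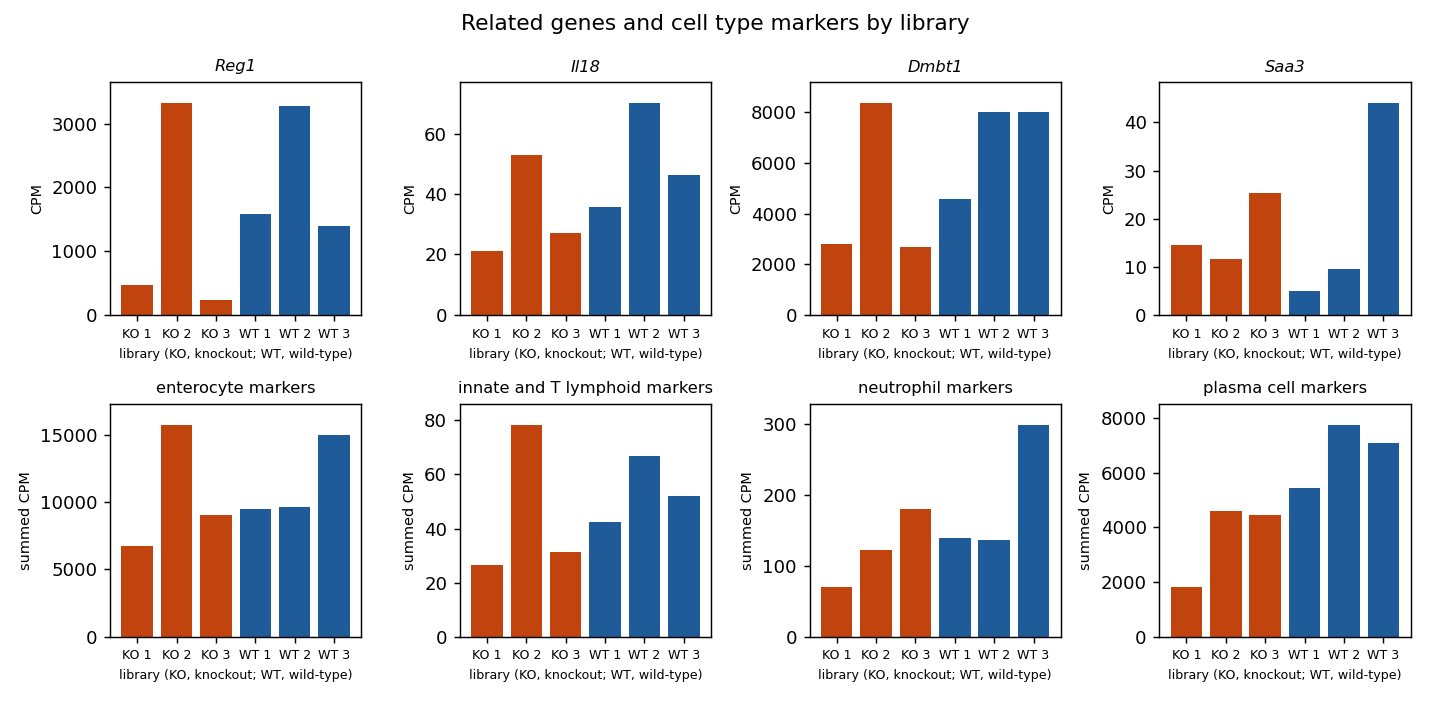
Levels in CPM of Reg1, Il18, Dmbt1 and Saa3 (upper panels) and summed CPM of 4 cell type marker lists (lower panels) in the 3 knockout (orange) and 3 wild-type (blue) libraries. Reg1 is high in knockout replicate 2 and wild-type replicate 2, and Saa3 in knockout replicate 3 and wild-type replicate 3. Of the lists shown only the plasma cell sums, made up mostly of Igha, separate the groups.

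The microRNAs missing from the knockout tumors were compared with the members by sequence. The mature miR-34a-5p and miR-34b-5p are shown (RefSeq, GRCm38.p6) with bases 2 to 8, the seed, in capitals, because this stretch pairs with target mRNAs. Both carry the same seed.
mmu-miR-34a-5p: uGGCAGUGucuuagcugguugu
mmu-miR-34b-5p: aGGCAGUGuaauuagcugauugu
The matching letters are CACTGCC, opposite the whole seed, and ACTGCCA. Neither was found in the longest annotated 3′ UTR of any of the 10 members, which ranged from 200 bases (Reg3b) to 1353 bases (Pigr). Of 14693 tested genes with an annotated 3′ UTR, 22.8% held at least 1 of them. Absence of these letters says only that this UTR does not hold them.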

How the data were processed

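RNA of small-intestinal adenomas was sequenced in 3 knockout and 3 wild-type mice, grouped by the sample titles and genotypes. The deposited values are raw counts per Ensembl gene, made by the authors with TopHat2 2.1.0 and HTSeq 0.6.1 on mm10, per the submitters' processing notes. How strand and multiply matched reads were handled, and which annotation release was used, were not stated there. Symbols were found for 45143 of 46078 identifiers in GENCODE M21, and the other 935 held at most 0.256% of counts. Deposited coordinates are printed with the first base as 1.

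Genes were filtered with filterByExpr, scaled by TMM (factors 0.914 to 1.09) and compared with edgeR 4.0.16 in R 4.3.3 (quasi-likelihood F-test, robust, Benjamini-Hochberg over 17254 genes, threshold 0.05). SE is the log2 fold change over the square root of F. p-values measure the spread between mice. No libraries were duplicates (chi-square per degree of freedom at least 47.0 over genes with at least 20 counts). Tested on simulated counts of 17254 genes in 3 against 3 libraries, the fit recovered 90.5% of 200 genes changed by 3 on the log2 scale, and 15 of its 196 calls were false. The changed genes were drawn at random and smaller changes were not simulated. This recovery therefore does not carry over to the members, whose largest fitted log2 fold change was -1.28. Levels per kilobase use the longest coding transcript, and near copies were sought with BLAST 2.17.0. Alternatives were DESeq2 1.42.0, DESeq2 size factors in edgeR, library size alone, no count filter, a replicate block, a sex term and each mouse left out.

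The members and gene lists were chosen with earlier results of these data known. All members are named, and from each other list the genes past the threshold or else the 4 of smallest p with a mean of at least 1 CPM, plus cluster neighbours. Dmbt1, Iglc1, Il6, Il22, Il17a, Il17f, Ifng, Il22ra1, Stat3 and Myd88 and single marker genes were named after their values were seen. Promoters and mature microRNAs are from RefSeq tables, which held 9 of the 10 members (not Nos2) and not miR-34c-5p.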

Additional observations from a re-analysis of the deposited data

How the results depend on the processing

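No member passed the threshold in any of the 12 alternatives. The lowest adjusted p of a member in an edgeR alternative was 0.232 (Pigr without knockout replicate 2) and with DESeq2 0.923 (Saa1). The number of all genes called was 16. It was 140 with DESeq2 and ranged from 9 (without knockout replicate 1) to 41 (without knockout replicate 2) when 1 mouse was left out, 10 when it was knockout replicate 3 and 29 when it was wild-type replicate 3. The median log2 fold change of the members stayed below 0, from -0.63 (without knockout replicate 2) to -0.05 (without wild-type replicate 3). Library size alone moved the median of all genes to 0.08 and turned the sign of no member. Of 108 alternative member values 13 had the other sign, all with 1 mouse left out. Over the 6 fits with 1 mouse left out, Lcn2 ran from -0.54 to 0.86 and was below 0 in the fits that left out knockout 1, knockout 3, wild-type 1 and wild-type 2. Pigr ran from -0.75 to 0.16 and was above 0 in those that left out knockout 1, knockout 3 and wild-type 2. Duox2 ran from -0.12 to 0.48, below 0 when knockout 2, wild-type 1 or wild-type 2 was left out, and Duoxa2 from -0.073 to 0.48, below 0 when knockout 2 or wild-type 2 was left out. Sprr1a ran from -0.85 to 0.025, above 0 without knockout replicate 2. The cause was not tested. Reg3a, Reg3b, Reg3g and Nos2 kept their sign in all alternatives but not their size. Reg3a ran from -1.42 (knockout 3 left out) to -0.047 (wild-type 3 left out), Nos2 from -0.74 (wild-type 1 left out) to -0.10 (wild-type 2 left out), and Reg3b and Reg3g from -2.03 and -2.68 (knockout 2 left out) to -0.30 and -0.78 (wild-type 2 left out). Saa1 had too few counts for a value in the filtered fits and was fitted only without the filter and by DESeq2.

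Deviations of same-numbered mice correlated at 0.218, 0.273 and 0.0810. Knockout replicates 1 and 2 each correlated best with the wild-type replicate of the same number, but knockout replicate 3 with wild-type replicate 1 (0.179). These correlations do not settle whether replicate numbers pair the mice. With the replicate block 14 genes and 0 members were called, the median was -0.33, and the adjusted p of Reg3a, Reg3b and Reg3g were 0.378, 0.392 and 0.284 (edgeR). At an unadjusted p below 0.05, 3 of the 9 tested members passed in this fit, where 1633 of 17254 genes did. The 3 were Reg3a, Reg3b and Reg3g (edgeR unadjusted p = 0.00928, 0.0114 and 0.00258). With 3 mice a group the spread among mice limits what can be seen in the Reg3 genes and Lcn2, and depth limits Saa1.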
